A study of Mus musculus with 4 samples.

Results

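The 8 genes Cd79a, Cd79b, Cr2, Cd22, Fcer2a, Ms4a1, Bank1 and Pax5, all used as markers of B lymphocytes, were described in mouse colon by tissue and Dmt1 genotype. They were chosen by their signal on these same arrays, because B cell genes were higher in the F/F tumour than in the wild-type tumour, so that difference is a description and supports nothing further. All 8 were found among 22180 genes that had a probe set annotated to exactly 1 gene, and each had 1 such probe set. RNA of C57BL/6 mice aged 3 months was hybridised to 4 arrays, 1 each for F/F tumour, wild-type tumour, F/F normal colon and wild-type normal colon. F/F stands for the label CDX2; Dmt1F/F/ApcF/+ and wild-type for CDX2; Dmt1+/+/ApcF/+, so every mouse carried CDX2 and 1 ApcF allele, and the wild-type mice differed from the F/F mice in Dmt1. F is the usual sign for an allele with loxP sites on both sides. The labels do not say what CDX2 stands for, in which cells the alleles were recombined or where along the colon a piece was taken. The design text names 4 F/F and 7 wild-type animals, and does not say whether their RNA was pooled. No group had a replicate, so each difference below is between single log2 signals, has no error and was given no p-value.

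B cells carry an antigen receptor made of a membrane immunoglobulin and the signalling chains encoded by Cd79a and Cd79b, and coreceptors raise or lower the signal it gives. In the gut they are gathered in lymphoid follicles of the mucosa, where naive B cells can form germinal centres, and they leave as plasma cells that secrete IgA into the lamina propria. Mature naive B cells, germinal centre cells and plasma cells use different genes: Ms4a1, Cr2 and Fcer2a belong to the mature B cell and are switched off in plasma cells. Cr2 and Fcer2a are also made by follicular dendritic cells, the stromal cells that hold antigen in a follicle. In a tissue RNA sample, more cells of a type cannot be told apart from more RNA per cell.

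Because the 8 genes were high on the same array, their promoters were examined for short motifs known from B cell gene control. The RefSeq windows of mouse build GRCm38.p6, from 250 bases before to 50 bases after a transcript start, covered 6 of the genes with 8 windows. They were searched on both strands for ATGCAAAT (octamer, bound by Oct factors), CCCNNGGG (core of the site of Ebf1, which reads the same on both strands), GAGGAAGT (PU.1) and CAGGTG (an E box of E proteins). The windows of Cr2, Bank1, Cd22 and Cd79a are shown 5′ to 3′ in the direction of the gene, as the 4 genes with a match and a single window, with matches in capitals. Cr2 lies at chr1:195176670-195176969 (minus strand), Bank1 at chr3:136326017-136326316 (minus), Cd22 at chr7:30878979-30879278 (minus) and Cd79a at chr7:24897247-24897546 (plus).
Cr2 promoter: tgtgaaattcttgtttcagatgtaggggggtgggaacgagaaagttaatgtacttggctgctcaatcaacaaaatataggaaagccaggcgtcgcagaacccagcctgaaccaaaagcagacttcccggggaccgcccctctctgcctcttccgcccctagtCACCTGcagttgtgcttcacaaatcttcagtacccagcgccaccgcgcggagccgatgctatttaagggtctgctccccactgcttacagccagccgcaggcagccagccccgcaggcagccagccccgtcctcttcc
Bank1 promoter: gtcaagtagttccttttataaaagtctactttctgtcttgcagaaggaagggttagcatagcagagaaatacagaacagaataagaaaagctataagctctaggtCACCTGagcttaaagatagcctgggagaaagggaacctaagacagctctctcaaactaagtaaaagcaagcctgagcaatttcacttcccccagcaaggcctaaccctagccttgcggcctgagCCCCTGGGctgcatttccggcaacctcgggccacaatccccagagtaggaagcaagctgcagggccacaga
Cd22 promoter: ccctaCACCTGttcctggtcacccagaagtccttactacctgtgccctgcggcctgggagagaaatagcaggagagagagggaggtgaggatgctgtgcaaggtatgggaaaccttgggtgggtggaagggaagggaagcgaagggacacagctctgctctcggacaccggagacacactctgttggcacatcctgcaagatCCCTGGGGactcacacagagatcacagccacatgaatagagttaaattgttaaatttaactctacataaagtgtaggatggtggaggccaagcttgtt
Cd79a promoter: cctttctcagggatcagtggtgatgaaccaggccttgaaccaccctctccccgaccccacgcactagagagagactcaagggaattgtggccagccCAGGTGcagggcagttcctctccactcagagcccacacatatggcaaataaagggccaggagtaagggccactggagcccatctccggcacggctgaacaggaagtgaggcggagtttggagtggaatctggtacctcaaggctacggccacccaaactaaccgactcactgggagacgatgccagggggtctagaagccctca

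CAGGTG or its complement CACCTG was in 5 of the 8 windows, those of Cr2, Bank1, Cd22, Cd79a and 1 of 3 of Fcer2a, against 20.2% of all 32851 windows. The Ebf core was in 2 windows, CCCCTGGG in Bank1 and CCCTGGGG in Cd22, against 13.7% of all windows. No match overlapped another. The octamer and the PU.1 letters were in 0 of the 8 windows, against 1.74% and 3.20% of all windows. These are letter matches in one window per start and say nothing of binding.

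The labels were checked on the genes they concern. Slc11a2, the Dmt1 gene, had log2 signals of 6.19 in F/F tumour, 6.64 in wild-type tumour, 6.13 in F/F normal colon and 6.51 in wild-type normal colon; which part of the gene its probes cover was not examined. Slc11a2 was thus lower in F/F mice by 0.45 in tumour and by 0.38 in normal colon, and Apc lay between 8.53 and 8.70 on all arrays. Epcam, a surface protein of epithelial cells, lay between 10.88 and 10.99 on all 4 arrays. A log2 signal of 4.65, the median of all gene values, was taken as the level below which a signal is uncertain, and 12118 genes reached it on at least 1 array. In tumour against normal colon, 7 of 8 Wnt target genes were at least 2-fold higher in F/F mice and 8 of 8 in wild-type mice, against 5.97% and 6.55% of those 12118 genes. Of the 8 B cell genes, 7 were at or above the level in F/F tumour, 2 in wild-type tumour, 2 in F/F normal colon and 4 in wild-type normal colon. Of all gene values on the 4 arrays, about as many lie above the level as below, since it is their median. Cr2, Cd22 and Pax5 reached it in the F/F tumour only, the array on which the genes were chosen to be high. Fcer2a reached the level on none. Where 1 of the arrays is below this level, a difference may understate the change.

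All 8 B cell genes had their highest signal in the F/F tumour, as did 15.5% of the 12118 genes. In 7 of the 8 the F/F tumour was higher by 2-fold or more (a log2 difference of at least 1) than the wild-type tumour. That is the contrast they were chosen from; 1.69% of the 12118 genes were higher and 0.503% lower by this amount, and of all 22180 genes 1.01% and 0.325%. The differences ran from 0.93 for Cd79b to 2.65 for Ms4a1, with a median of 1.68, against -0.02 over the 12118 genes. On the mean of the 8 log2 signals the arrays stood at 6.10 in F/F tumour, 4.30 in wild-type tumour, 4.08 in F/F normal colon and 4.58 in wild-type normal colon.

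**Figure D1:**
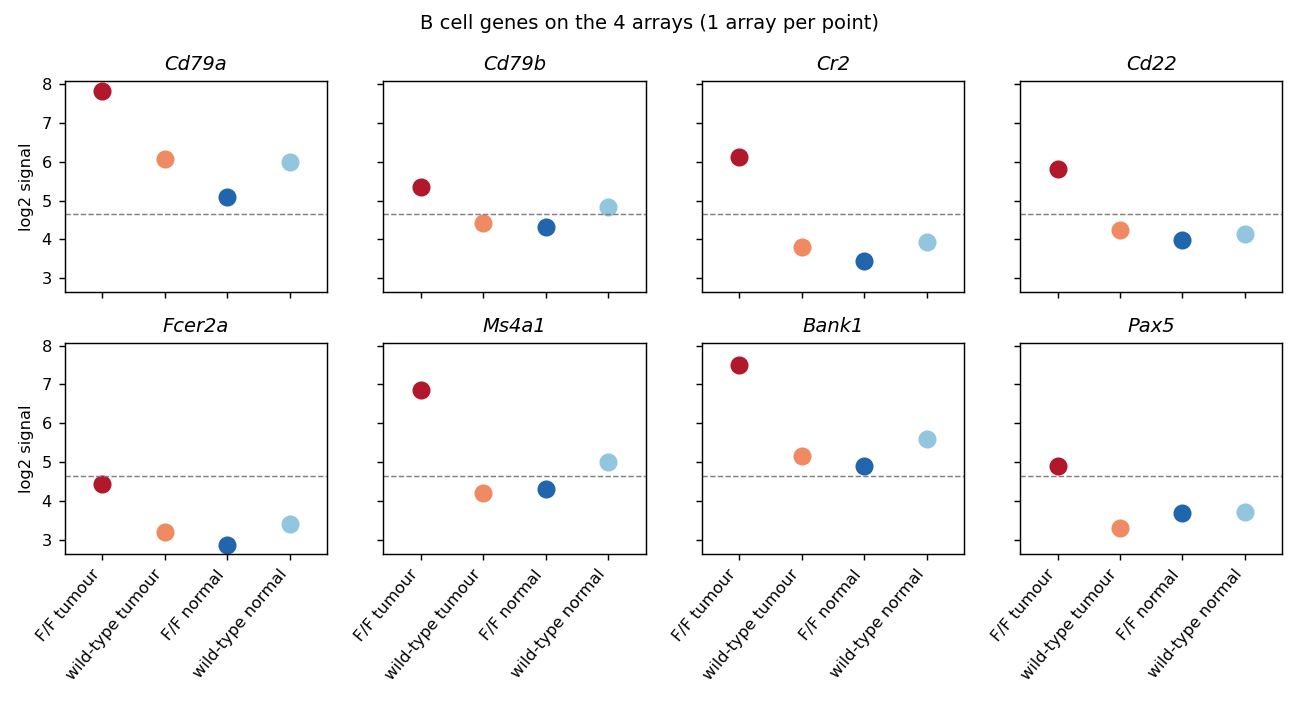
Log2 signal of each of the 8 B cell genes (vertical axis) on the F/F tumour, wild-type tumour, F/F normal and wild-type normal arrays; each point is 1 array and the dashed line is the level of 4.65. The F/F tumour point is the highest in all 8 panels, and Fcer2a lies below the line on every array.

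Cd79a and Cd79b encode the signalling chains of the B cell receptor. Cd79a had a log2 signal of 7.82 in F/F tumour, 6.06 in wild-type tumour, 5.09 in F/F normal colon and 5.98 in wild-type normal colon. The F/F tumour stood alone, and the wild-type tumour and wild-type normal colon were within 0.08 of each other. Its difference between F/F and wild-type tumour was 1.77, which is 3.40-fold. Cd79b had 5.36 in F/F tumour, 4.43 in wild-type tumour, 4.31 in F/F normal colon and 4.84 in wild-type normal colon. Its partner chain was thus less separated: the F/F tumour was 0.51 above the next array, and the other 3 arrays spanned 0.53. The tumour difference of 0.93 (1.90-fold) was the smallest among the 8 genes and the one below 2-fold.

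Cr2 encodes complement receptor 2, CD21, which lowers the threshold of the B cell receptor when antigen carries complement. Its log2 signals were 6.13 in F/F tumour, 3.80 in wild-type tumour, 3.44 in F/F normal colon and 3.92 in wild-type normal colon. The other 3 arrays were below the level of 4.65 and the F/F tumour was 2.21 above the next, the widest gap among the 8 genes, with a tumour difference of 2.33. Cd22, an inhibitory coreceptor that binds sialic acid, had 5.80 in F/F tumour, 4.25 in wild-type tumour, 4.00 in F/F normal colon and 4.15 in wild-type normal colon. Its other 3 arrays lay within 0.26 of each other, and the tumour difference was 1.55. Fcer2a, the low-affinity IgE receptor CD23 of follicular B cells, had 4.44 in F/F tumour, 3.22 in wild-type tumour, 2.88 in F/F normal colon and 3.42 in wild-type normal colon. All 4 signals were below the level, so its difference of 1.22 is uncertain in size, and its arrays stood in the order of Cr2.

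Ms4a1 encodes CD20, a surface protein of mature B cells. Its log2 signals were 6.85 in F/F tumour, 4.20 in wild-type tumour, 4.32 in F/F normal colon and 5.01 in wild-type normal colon. The wild-type tumour had the lowest of the 4 values and wild-type normal colon the second highest. The tumour difference of 2.65 (6.27-fold) was matched or passed by 3 of the 12118 genes, itself included. Bank1, an adaptor that links the receptor to calcium release, had 7.49 in F/F tumour, 5.16 in wild-type tumour, 4.91 in F/F normal colon and 5.60 in wild-type normal colon. It was above the level on all 4 arrays, as was Cd79a, and differed by 2.33 between the tumours. Pax5, the transcription factor that holds cells in the B lineage, had 4.89 in F/F tumour, 3.31 in wild-type tumour, 3.69 in F/F normal colon and 3.71 in wild-type normal colon. Its normal arrays were nearly equal and its wild-type tumour was the lowest, with a tumour difference of 1.58.

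In F/F mice each of the 8 genes was higher in tumour than in normal colon by 2-fold or more, against 5.97% of the 12118 genes. The differences ran from 1.05 for Cd79b to 2.74 for Cd79a, with a median of 2.17 against 0.04 over the 12118 genes. This comparison uses the array on which the genes were chosen to be high. In wild-type mice the comparison of tumour with normal colon gave 0 genes higher and 0 lower by 2-fold, where 6.55% and 5.28% of the 12118 genes were. The median was -0.30 against 0.08 over those genes, from -0.81 for Ms4a1 to 0.10 for Cd22, and 6 of 8 differences were negative. The wild-type tumour is the array the choice favoured to be low. With F/F normal colon in place of wild-type normal colon as the baseline, the wild-type tumour median was 0.25, so the sign turned. Whether the tumour difference is unlike in the genotypes cannot be tested with 1 array in each group.

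The comparison of the normal colon arrays shares no array with the comparison of the tumours that the genes were chosen from, though the choice was made with results of all 4 arrays known. All 8 were lower in F/F than in wild-type normal colon, with a median of -0.53 against 0.04 over the 12118 genes, of which 43.7% were lower. Cd79a differed by -0.89, Ms4a1 by -0.70, Bank1 by -0.68, Fcer2a and Cd79b by -0.53 and Cr2 by -0.48. Cd22 (-0.15) and Pax5 (-0.02) were close to equal, and Pax5 turned to 0.02 when each array was centred on its median. In either direction 0 of the 8 reached 2-fold, against 0.718% of the 12118 genes higher and 0.899% lower. The genotype difference thus had opposite signs in tumour and normal colon for the 8 genes. In tumour 46.2% of the 12118 genes were higher in F/F mice. Members are not replicates, since genes of 1 cell type vary with the amount of those cells in a piece.

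**Figure D2:**
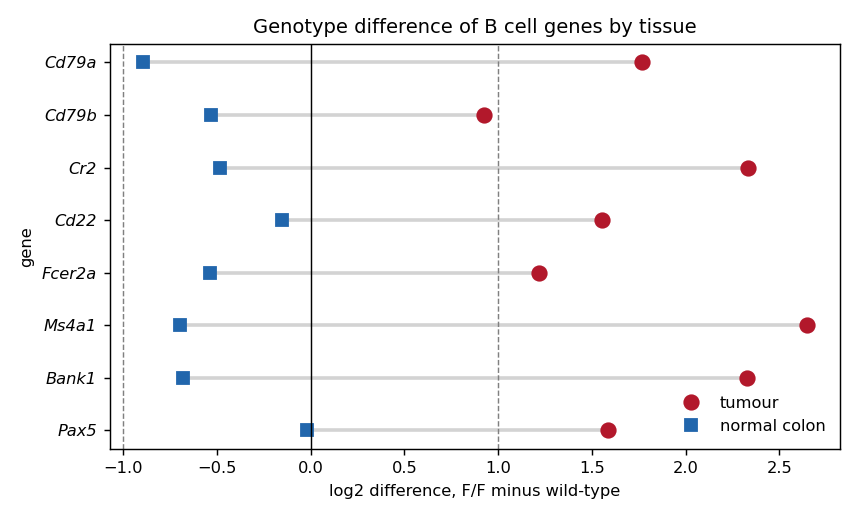
Log2 difference between F/F and wild-type mice (horizontal axis) for the 8 B cell genes in tumour (circles) and in normal colon (squares), each from 2 arrays; dashed lines mark 2-fold. The tumour points lie between 0.93 and 2.65 and the normal colon points between -0.89 and -0.02.

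Other genes of the normal colon pieces differed beside them. In F/F against wild-type normal colon the median differences were -0.39 over 8 pan-leukocyte genes, -0.38 over 14 plasma cell genes, -0.34 over 10 macrophage genes, -0.32 over 9 MHC class II genes and -0.08 over 11 T cell genes. Genes of distal position in the colon had a median of -0.91 (6 genes) and those of proximal position 0.84 (6 genes). Between F/F and wild-type tumour the position medians were 0.00 and 0.33. The part of position and of leukocyte content in the B cell values was not tested.

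Further B cell genes, from lists drawn up for function and with earlier results of these arrays known, were set beside the 8. Of 14 other surface genes measured, 6 were higher in F/F than in wild-type tumour by 2-fold or more and 0 lower, against 1.01% and 0.325% of all measured genes. Their median was 0.72, and 11 of the 14 reached the level. Cd180, a Toll-like receptor relative of B cells, differed by 1.74, the Fc receptor-like Fcrl1 by 1.67, the IgM Fc receptor Fcmr by 1.45, the tetraspanin Cd37 by 1.40, the lectin Siglecg by 1.23 and Cd83 by 1.15. Siglecg and Cd83 were below the level on all arrays. Cd180, Fcrl1 and Fcmr reached it in F/F tumour only, so the size of their differences is uncertain. In the same list the costimulatory receptor Cd40 differed by 0.24, the inhibitory Fc receptor Fcgr2b by -0.12 and the tetraspanin Cd81 by -0.15. Tspan32 was the lowest of that list, at -0.29.

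Of 17 B lineage transcription factors and regulators, 7 were higher in F/F tumour by 2-fold or more and 0 lower, with a median of 0.97, where 1.01% of all measured genes were higher and 0.325% lower. Ikzf3 (Aiolos) differed by 1.99, Aff3 by 1.58, Spib by 1.57, Ikzf1 (Ikaros) by 1.19, Ebf1 by 1.19 and Mef2c by 1.08, and the adaptor Stap1 was between Spib and Ikzf1. Spib was below the level on all arrays, and Aff3 and Stap1 reached it in F/F tumour only. Ikzf3 had log2 signals of 6.29 in F/F tumour, 4.31 in wild-type tumour, 4.86 in F/F normal colon and 5.07 in wild-type normal colon. Tcf3 (-0.43), Id3 (0.02) and Bcl11a (0.04) of the same list were not past 2-fold. Of 15 genes of B cell receptor signalling, 3 were higher by 2-fold and 0 lower, with a median of 0.42. These were the kinases Blk (1.69) and Btk (1.05) and the protein kinase C Prkcb (1.04). Blk and Btk reached the level in F/F tumour only. Rasgrp3 (0.93), an activator of Ras, Syk (0.77) and the phosphoinositide kinase subunit Pik3cd (0.75) were higher by less than 2-fold. The 4 of the 15 with negative differences were Malt1 (-0.05), Vav1 (-0.14), Dapp1 (-0.20) and Pik3ap1 (-0.39). Over the 3 lists together, 16 of 46 genes were higher by 2-fold and 0 were lower. Their highest signal was in the F/F tumour for 33 of the 46, where 15.5% of the 12118 genes at the level had theirs.

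Lists for other B lineage stages were counted in the same way. Of 14 plasma cell genes, 0 were higher and 0 lower by 2-fold in F/F than in wild-type tumour, against 1.01% and 0.325% of all measured genes, with a median of 0.03. Jchain, the joining chain of secreted IgA and IgM, had log2 signals of 10.11 in F/F tumour, 10.01 in wild-type tumour, 9.35 in F/F normal colon and 10.33 in wild-type normal colon. It was thus lowest in F/F normal colon, as were 7 probe sets of the immunoglobulin mu gene Ighm, whose differences between F/F and wild-type normal colon ran from -1.59 to -0.72. In tumour their median difference was 0.09, and 1 of the 7 was higher by 2-fold, at 2.32; immunoglobulin gene segments resemble each other, so which transcripts these probe sets read is uncertain. Ighg3, a heavy chain gene of class-switched antibody, differed by 1.69 between the tumours on the 1 of its 2 probe sets with the higher mean. It reached the level in F/F tumour only. Ighm and Ighg3 were the 2 measured of 12 listed immunoglobulin genes. Of 9 germinal centre genes, 1 was higher by 2-fold, Rgs13 at 1.46. Its signals were 4.62 in F/F tumour and 3.16 in wild-type tumour, both below the level, so the size of its difference is uncertain. In normal colon Rgs13 was higher still, at 5.42 in F/F and 4.92 in wild-type. The germinal centre factor Bcl6 differed by -0.23 and S1pr2 by -0.13. Among early B cell genes, 6 of the surrogate light chain, recombinase and terminal transferase genes had signals below the level on all 4 arrays, and differed by -0.13 to 0.12.

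In genes of follicle homing and B cell survival, 2 of 14 were higher in F/F tumour by 2-fold and 0 lower, with a median of 0.29. Of all measured genes, 1.01% were higher and 0.325% lower. The BAFF receptor Tnfrsf13c, which mature B cells need to survive, differed by 1.80 and Cxcl13, the chemokine that draws B cells into follicles, by 1.48. Cxcl13 had log2 signals of 10.14 in F/F tumour, 8.66 in wild-type tumour, 8.33 in F/F normal colon and 9.26 in wild-type normal colon, with the F/F tumour highest and F/F normal colon lowest. Its receptor Cxcr5 differed by 0.61, the lymphotoxin Ltb by 0.61, the survival factor Tnfsf13b (BAFF) by 0.27 and the vessel addressin Madcam1 by 0.31. Of 10 follicular dendritic cell genes, 3 were higher by 2-fold: Cr2 and Fcer2a, which are among the 8, and Cxcl13. Clu (-0.16), Mfge8 (0.30) and Vcam1 (0.49) were not. Of 12 genes of M cells and the epithelium over follicles, Spib was higher and Tnfaip2 (-1.17) lower by 2-fold, with a median of -0.19.

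MHC class II genes present antigen to T cells. H2-DMb2 (2.19), H2-Oa (1.27) and H2-Ob (1.08) were the 3 of 9 measured class II genes higher in F/F tumour by 2-fold or more, against 1.01% of all measured genes. H2-Oa and H2-Ob encode the DO molecule, which B cells use to modulate peptide loading. H2-Oa was below the level on all arrays, and H2-Ob reached it in F/F tumour only. The other 6 measured, with the presenting chains H2-Aa, H2-Ab1 and H2-Eb1 that dendritic cells and macrophages share, differed by 0.16 to 0.45. H2-DMb2 had log2 signals of 6.89 in F/F tumour, 4.70 in wild-type tumour, 4.66 in F/F normal colon and 4.98 in wild-type normal colon, which again set the F/F tumour apart from 3 arrays close together.

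**Figure D3:**
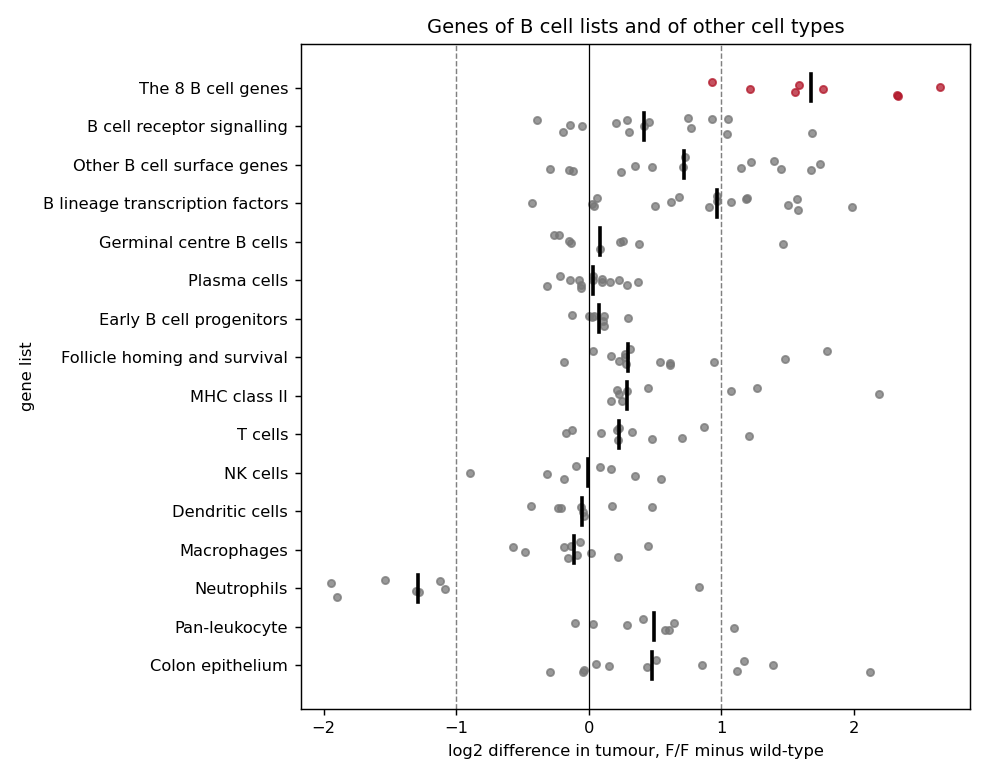
Log2 difference between F/F and wild-type tumour (horizontal axis) for the measured genes of the lists named on the vertical axis; each point is 1 gene, black bars are list medians and dashed lines mark 2-fold. The 8 B cell genes have a median of 1.68, other B cell surface genes 0.72, plasma cells 0.03 and neutrophils -1.29.

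Other cell types were measured in the same tumours, where 1.01% of all measured genes were higher and 0.325% lower by 2-fold. Among 11 T cell genes 1, the coreceptor Cd4, was higher in F/F tumour by 2-fold (1.21), and it reached the level there only. The receptor chains Cd3e (0.71), Cd3g (-0.17) and Cd3d (0.23) were not, with a list median of 0.23. The medians were 0.32 over 8 genes of follicular helper T cells, -0.01 over 8 NK cell genes, -0.05 over 8 dendritic cell genes and -0.11 over 10 macrophage genes, with 0 genes of these lists past 2-fold in either direction. Neutrophil genes stood the other way, 7 of 8 lower by 2-fold in F/F tumour, between -1.94 and -1.08, while Ly6g differed by 0.83. The pan-leukocyte gene Ptprc (CD45) was higher by 1.10 and Itgb2 differed by -0.10. Mean log2 signals of the 8 pan-leukocyte genes were 6.87 in F/F tumour, 6.42 in wild-type tumour, 5.79 in F/F normal colon and 6.19 in wild-type normal colon. Of 12 colon epithelium genes, 4 were higher in F/F tumour by 2-fold: the chloride exchanger Slc26a3 (2.12), the homeobox factor Cdx2 (1.39) and the carbonic anhydrases Car2 (1.17) and Car1 (1.12). The part of tissue make-up in the B cell differences was not tested, and no difference between lists was tested.

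The genes whose pattern was most like that of the 8 were sought among the other 12111 genes at the level, by the root mean square difference over the 4 arrays between a gene's log2 signal, centred on its own mean, and the mean centred profile of the 8. The 15 nearest differed by 0.09 to 0.25 log2 units, and the 8 genes themselves by 0.16 (Cd22) to 0.41 (Cd79b). They were Btla, an inhibitory receptor of B and T cells, then Tnfrsf13c, Fcrl1, Cd37, H2-DMb2, Cd180, the class II chain gene H2-Eb2, Stap1, Blk, the cytochrome Cyp2c68, Cxcl13, the SLAM receptor Slamf6, 2310034C09Rik, Aff3 and Ikzf1. Of these, 10 were in the lists described above. The 24 lists hold 259 entries and were chosen with earlier results of these data known, so the overlap is a description only. Btla, Fcrl1, Cd180, H2-Eb2, Stap1, Blk, Slamf6, 2310034C09Rik and Aff3 reached the level in F/F tumour only. Btla, the nearest, had log2 signals of 5.96 in F/F tumour, 4.13 in wild-type tumour, 3.77 in F/F normal colon and 4.52 in wild-type normal colon. With 4 points that share 1 high array, likeness is a description of these arrays.

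**Figure D4:**
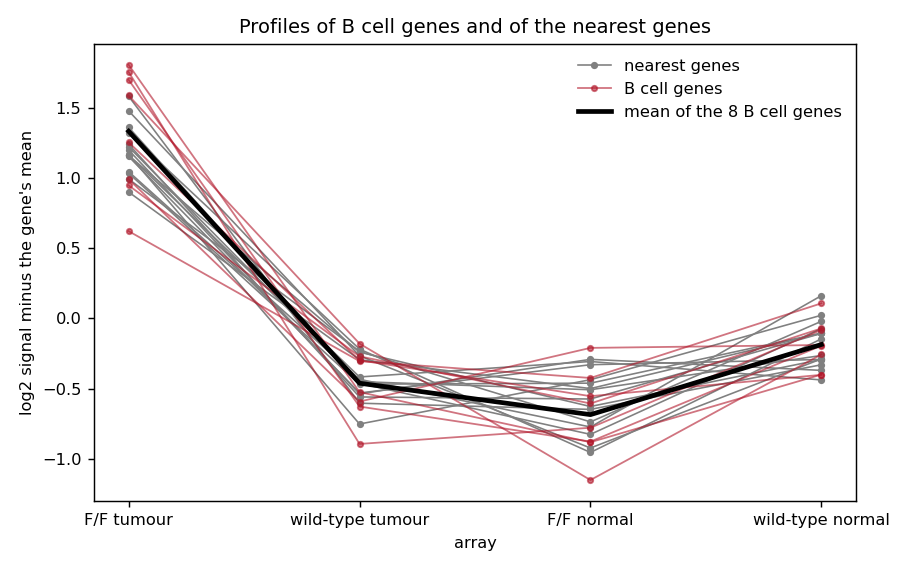
Log2 signal minus the gene's mean over the 4 arrays (vertical axis) for the 8 B cell genes (red), their mean (black) and the 15 nearest other genes (grey), by array. The mean profile stands at 1.33 in F/F tumour, -0.46 in wild-type tumour, -0.69 in F/F normal colon and -0.19 in wild-type normal colon.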

How the data were processed

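Total RNA (400 ng per array, per the labels' protocols) from Trizol extracts was labelled with biotin by an Affymetrix whole-transcript kit. The deposited values are log2 signals of probe sets; oligo and RMA are named in the submitters' processing notes, and no version or genome build is given in the sources used here. RMA is meant to put the arrays on a common distribution, which takes out differences in total signal, and it gives no detection call. Array medians of the deposited values still lay between 4.27 and 4.34, so small differences in level between arrays remained. With so few arrays no value has a measure of its precision. Columns of other samples numbered 0.

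Of 41345 probe sets, 23521 had exactly 1 gene in the platform annotation, 1814 had several and 16010 were unnamed in it. Symbols were updated through the gene ID for 23328 of the probe sets with 1 gene by the RefSeq table of GRCm38.p6. For 1082 of the 22180 genes with several probe sets, the one with the highest mean was used. With 1 array per group no model was fitted. An additive model would take its residual from the tissue by genotype term. That term contains the tumour contrast from which these genes were chosen. Differences of log2 values were counted at 2-fold, and the counting was tested on simulated data in which 200 genes were changed. Lists were counted over all measured genes, not only those at the level. Named were all 8 genes, at most 6 genes per list by size of the tumour difference with further list genes chosen after their values were seen, and the 15 nearest profiles. The members and the 24 lists were chosen with earlier results of these data known. Protein motifs, planned at the start, were not analysed here. The alternatives tried were centring, quantile and cyclic loess normalization (limma 3.58.1 in R 4.3.3), averaging of probe sets, other filters, other fold limits and the other normal array as baseline. Python 3.11.15 was used with pandas 2.3.3 and numpy 2.4.6.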

Additional observations from a re-analysis of the deposited data

Results flagged for a closer look

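For all 8 B cell genes the difference between F/F and wild-type mice was positive in tumour and negative in normal colon. Of the 12118 genes, 46.2% were higher in F/F than in wild-type tumour. In normal colon 43.7% of them were lower in F/F mice. Each difference is from 1 array per group, and the difference between the tissues was not tested. Subtracting the log2 difference in normal colon from that in tumour gave 3.35 for Ms4a1, 3.01 for Bank1, 2.81 for Cr2, 2.66 for Cd79a, 1.75 for Fcer2a, 1.70 for Cd22, 1.60 for Pax5 and 1.46 for Cd79b. The median of these values was 2.21, against -0.06 over the 12118 genes. The genes were chosen for a high F/F tumour, so the positive side of the pattern is fixed by the choice. For Pax5 the normal colon value was -0.02, and its sign turned to positive when each array was centred on its median.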

How the results depend on the processing

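Under the 3 other normalizations the differences of the 8 genes lay between 0.88 and 2.66 for F/F against wild-type tumour, the contrast they were chosen from, and between 0.92 and 2.66 for tumour against normal colon in F/F mice. Filters and fold limits do not enter a difference, and the mean of probe sets could not move these, since each gene has 1 probe set. Counted at 4-fold, the F/F tumour was higher than wild-type tumour in 3 of the 8 genes, and higher than F/F normal colon in 4, against 0.140% and 1.20% of the 12118 genes. Counted at 1.5-fold, 1 gene was lower in wild-type tumour than in its normal colon, and 3 were lower in F/F normal colon than in that of wild-type mice, against 12.8% and 3.99% of the 12118 genes, so the first count is at the share of all genes. Cd79b was the gene nearest to the limit of 2-fold: in F/F mice its tumour difference of 1.05 was 0.97 with centring, 0.92 with quantile normalization, 0.97 with cyclic loess and 0.51 against wild-type normal colon. Against that array the differences of the F/F tumour were 1.84 for Ms4a1, 1.89 for Bank1 and 1.84 for Cd79a, with a median of 1.75 over the 8. Against F/F normal colon the wild-type tumour differed by 0.97 for Cd79a and by a median of 0.25, where the median against its own normal array was -0.30. In normal colon 21 of 24 differences between F/F and wild-type kept the negative sign over the 3 normalizations, and the 3 exceptions were of Pax5. With the filter at the 75th percentile, 3 of the 8 genes and 6549 of all genes remained. Centring and normalization moved the median difference of the genes at the level by at most 0.10. There were no replicates to leave out, and no block of samples to fit.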
